A study of Mus musculus with 24 samples.

Results

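The genes described here are 37 genes that build, check and clear proteins in the endoplasmic reticulum (ER), together with the sensors of the unfolded protein response (UPR) that control them. They were chosen by gene name from the count table of engineered C2C12 muscle tissues, with earlier results of these data known, so their counts are descriptions and not tests of the group. The table lists 56941 genes, of which 27870 had at least 1 estimated count and 13315 passed the filter on low counts. Of the 37 genes, 36 passed. Derl3, a derlin typical of secretory cells, had 0 counts in all 24 libraries and was not tested, so it is absent from every count of tested members that follows.

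C2C12 is an established line of mouse myoblasts whose cells fuse into contractile myotubes. The cells carried ChR2::tdTomato, a blue light-gated cation channel fused to a red fluorescent protein, and this holds for the unstimulated controls as well. They were grown in horse serum with IGF-1 as sheets on grooved fibrin, and light drove them daily for 60 min at 1, 4 or 10 Hz for about 2 weeks before RNA was extracted. Each frequency and the unstimulated control had 6 replicate libraries of this 1 line. The p-values set group differences against the spread between such libraries, estimated once per gene over all groups, and not against a spread between lines. The control tissues also twitched spontaneously, so unstimulated does not mean still.

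Proteins enter the ER through the Sec61 channel and fold there with the help of the Hsp70 chaperone BiP (Hspa5), the lectin chaperones calnexin and calreticulin, and enzymes that make disulfide bonds. Proteins that fail are trimmed, drawn back through the membrane and sent to the proteasome, a route called ER-associated degradation (ERAD). When unfolded proteins build up, 3 membrane sensors, IRE1 (Ern1), PERK (Eif2ak3) and ATF6 (Atf6), raise the output of this machinery. In muscle the same organelle is drawn out into the sarcoplasmic reticulum, which stores the calcium of contraction.

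Of these genes, 14 of 37 (37.8%) hold at least 1 of 3 short promoter words through which ATF6 and XBP1 are known to act. The share of all protein-coding promoters was 0.905%. Printed here are 6 promoters, because they hold such words beside genes that rose and genes that did not. The words searched on both strands, from 250 bases before to 50 bases after the start of each gene's canonical transcript, were the ER stress element (ERSE, CCAAT followed after 9 bases by CCACG), ERSE-II (ATTGG, 1 base, CCACG) and the core of the UPR element (TGACGTGG). An ERSE stood in 9 of the 37 windows (24.3%) and in 27 of 21667 protein-coding promoters (0.125%). ERSE-II stood in 4 of 37 (10.8%) and in 0.0692% of all promoters, and the UPR element core in 2 of 37 (5.41%) and in 0.725%. The cAMP element ACGTCA, which read on the other strand overlaps the UPR element core, was found in 6 of 37 (16.2%) and in 8.57%. The genes with an ERSE were Hspa5, Hsp90b1 (2 copies), Calr, Canx, Pdia6, Dnajc3, Creld2, Syvn1 and Derl3. Those with an ERSE-II were Dnajb11, Manf, Hyou1 (2 copies) and Herpud1, and the UPR element core was found in Hyou1 and Sec24d. The members were chosen as genes of this response and are also counted among all promoters. These shares therefore describe the list and are no finding of these data. A match describes the letters and is not a measured binding site. The search does not see other spellings or words outside the window, so no match is not absence of an element.

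The 200 bases before the start, read 5′ to 3′ in the direction of the gene from the GRCm39 genome with GENCODE starts, are given with the 5-letter parts of ERSE and ERSE-II and the UPR element core in capitals. Their positions are chr2:34661904-34662103 (plus strand) for Hspa5, chr10:86541379-86541578 (minus strand) for Hsp90b1, chr8:85573668-85573867 (minus strand) for Calr, chr11:50216530-50216729 (minus strand) for Canx, chr8:95112837-95113036 (plus strand) for Herpud1 and chr9:44290573-44290772 (plus strand) for Hyou1. In Hyou1 the UPR element core and the first ERSE-II, which reads on the opposite strand, share 5 letters.
Hspa5: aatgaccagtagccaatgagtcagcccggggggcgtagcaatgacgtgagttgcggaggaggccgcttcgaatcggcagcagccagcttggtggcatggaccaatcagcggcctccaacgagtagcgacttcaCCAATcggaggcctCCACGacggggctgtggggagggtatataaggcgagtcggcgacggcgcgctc
Hsp90b1: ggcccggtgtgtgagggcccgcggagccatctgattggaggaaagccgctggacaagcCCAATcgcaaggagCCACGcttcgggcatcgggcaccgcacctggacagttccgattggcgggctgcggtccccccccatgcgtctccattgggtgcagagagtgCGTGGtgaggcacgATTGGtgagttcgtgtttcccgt
Calr: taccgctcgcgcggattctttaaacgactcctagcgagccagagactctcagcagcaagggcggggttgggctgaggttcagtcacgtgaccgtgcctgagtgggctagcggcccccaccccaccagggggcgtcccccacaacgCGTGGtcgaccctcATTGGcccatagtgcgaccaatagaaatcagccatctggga
Canx: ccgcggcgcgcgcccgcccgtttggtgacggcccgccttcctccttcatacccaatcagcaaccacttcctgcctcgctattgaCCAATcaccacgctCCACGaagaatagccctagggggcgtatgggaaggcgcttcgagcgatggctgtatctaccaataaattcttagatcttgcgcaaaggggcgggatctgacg
Herpud1: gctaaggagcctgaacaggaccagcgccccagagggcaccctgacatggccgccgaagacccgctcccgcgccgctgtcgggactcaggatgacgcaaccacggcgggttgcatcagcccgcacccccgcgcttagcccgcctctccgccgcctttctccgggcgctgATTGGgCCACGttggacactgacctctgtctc
Hyou1: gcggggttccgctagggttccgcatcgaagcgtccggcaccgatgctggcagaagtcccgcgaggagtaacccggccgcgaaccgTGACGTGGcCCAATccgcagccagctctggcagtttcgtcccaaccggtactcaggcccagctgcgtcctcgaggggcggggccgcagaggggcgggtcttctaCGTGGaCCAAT
In these 6, Calr and Canx carry 1 ERSE each, and Herpud1 and Hyou1 carry ERSE-II. At 4 Hz Calr and Herpud1 rose and Canx and Hyou1 did not pass the test. The 6 were picked to show both outcomes, so this contrast is no result. The part of these words in the members' changes was not tested. At 4 Hz, 8 of 13 tested members with any of the 3 words were higher than controls at an edgeR adjusted p under 0.05. Of those with no exact match 13 of 23 were, beside 27.5% of all tested genes. The median log2(fold change) was 0.37 in the former and 0.29 in the latter.

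The total estimated count per library ran from 8052369 to 18159144, and the spread between replicates in the fit, the biological coefficient of variation, was 14.8%. No 2 libraries of the 276 pairs held the same counts of the members. Myotube markers were abundant in every library, with a summed level of 9 markers of 11400 to 19600 TPM, a level per transcript length scaled to the same total in each library. At an edgeR adjusted p under 0.05, 0 of these 9 were higher and 1 lower at 1 Hz, with a median log2(fold change) of 0.04, and 2 higher and 1 lower at 4 Hz, with a median of 0.16. The marker that was lower at both was Myog, a transcription factor of differentiation, which fell by 1.34 and 1.47 on the log2 scale (edgeR adjusted p = 1.2e-12 and 1.5e-13). Markers of fat cells and of endothelium summed to at most 1.34 and 0.961 TPM in any library. Of 5 macrophage markers, Cd68 made nearly all of the summed 55.7 to 103 TPM, while Ptprc and Adgre1 had a median of 0 TPM in every group. The summed level of 6 markers of cycling myoblasts was 129 to 163 TPM in controls and 89.8 to 120 at 4 Hz. Most of that sum was Pcna, which in the counts had a log2(fold change) of -0.09 at 4 Hz (edgeR adjusted p = 0.36), while Cdk1 was higher there and Mki67 and Ccnb1 were lower, with a median of -0.12 over the 6. The sum of 7 markers of matrix-secreting cells overlapped, with 2160 to 3060 TPM in controls and 2020 to 2980 at 4 Hz. The part of these markers in the members' changes was not tested. In bulk RNA such as this, fewer cells of a type and less RNA per cell cannot be told apart.

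Transcript length moved with the groups, and this touches every result that follows. For all tested genes with canonical transcripts under 1500 bases the median log2(fold change) against controls was 0.25 at 1 Hz and 0.38 at 4 Hz, and for those over 5000 bases it was -0.08 and -0.11, whereas at 10 Hz it was 0.03 and 0. The steepest trends were those of 1 Hz replicates 4 and 6 and 4 Hz replicates 1, 3 and 4, in which the short genes lay 0.46 to 0.52 above the control mean (log2). Genes under 1500 bases held 37.1% to 39.3% of all TPM in the controls, 37.5% to 48.9% at 1 Hz, 40.6% to 52% at 4 Hz and 37.3% to 41.6% at 10 Hz. The paper's methods name poly(A) selection. The sample labels say that low-input samples were ribodepleted rather than poly(A)-selected but not which these were. The part of transcript length or of library type in the members' changes was not tested beyond the fits given with each result.

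In the unstimulated controls the levels of the members ranged widely. A few chaperones and disulfide enzymes were among the most abundant transcripts, while Edem1, Ern1 and Eif2ak3 stood below the middle of the tested genes. On the per-length TPM scale Hspa5 led with a median level of 2880 TPM (2640 to 3100), followed by Calr (calreticulin) with 2630 (2380 to 2920), and their ranges overlapped. Ero1a had a median of 976, Hsp90b1 of 947 and P4hb of 869, with ranges that overlap from one to the next. These 5 genes made up 67% to 69.1% of the members' summed TPM in the controls. Of the sensors, Ern1 and Eif2ak3 had the lowest levels of the tested members, with medians of 12.9 and 12.6 TPM and ranges that overlapped each other and, for both, that of Edem1 (median 15.1). Atf6 had a median of 35.7 TPM, above Edem3, Hspa13, Edem2 and Edem1. Ern1 thus stood above 45.6% of the tested genes and Hspa5 above 99.8%. The members' summed TPM had a median of 12279 in controls (11499 to 12656), 13978 at 1 Hz (11799 to 14559), 13302 at 4 Hz (11040 to 14479) and 12320 at 10 Hz (12036 to 13262), so the ranges overlapped in every pair of groups.

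Xbp1, PERK, BiP, calreticulin, the disulfide enzymes and several ERAD genes had higher counts after stimulation at 1 Hz and at 4 Hz, and no member passed the test at 10 Hz. At an adjusted p under 0.05 (Benjamini-Hochberg over all tested genes, edgeR's quasi-likelihood F test), 20 of 36 members were higher at 1 Hz (55.6%) and 0 lower, where 19.2% of all tested genes were higher and 18.1% lower. At 4 Hz 21 of 36 were higher (58.3%) and 1 lower, against 27.5% and 23.9% of all tested genes. Both comparisons share their control libraries. The changes were small. With an added threshold of 0.5 on the size of the log2(fold change), 2 members were called higher at 1 Hz, Eif2ak3 and Xbp1 (background 7.19% of genes higher, 7.74% lower). At 4 Hz 5 were called higher, Eif2ak3, Xbp1, Sdf2l1, Calr and Sec61b (background 12.8% higher, 12.3% lower), and none was called lower at either frequency. With the fold threshold the members' shares lie near the background. Just under the threshold were Hsp90b1, with a log2(fold change) of 0.49 at 1 Hz and 0.48 at 4 Hz, and Herpud1 with 0.49 at 4 Hz. The count of 2 at 1 Hz became 1 without control replicate 3, 1 Hz replicate 3 or 1 Hz replicate 6 and 4 without 1 Hz replicate 1 or 5, and the count of 5 at 4 Hz became 3 without control replicate 3 or 4 Hz replicate 3.

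The median log2(fold change) of the 36 members was 0.26 at 1 Hz and 0.31 at 4 Hz, beside 0.04 and 0.06 over all tested genes. In counts scaled to library size, all 6 stimulated libraries lay above all 6 controls in 9 members at 1 Hz and in 18 at 4 Hz. Of all tested genes, 5.55% and 12.9% did so. This separation depended on the scale. On the deposited TPM, the ranges of Eif2ak3, Xbp1, Hspa5, Hsp90b1, Calr and the disulfide enzymes overlapped the controls at both frequencies. Sdf2l1 at 4 Hz stayed above them.

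**Figure D1:**
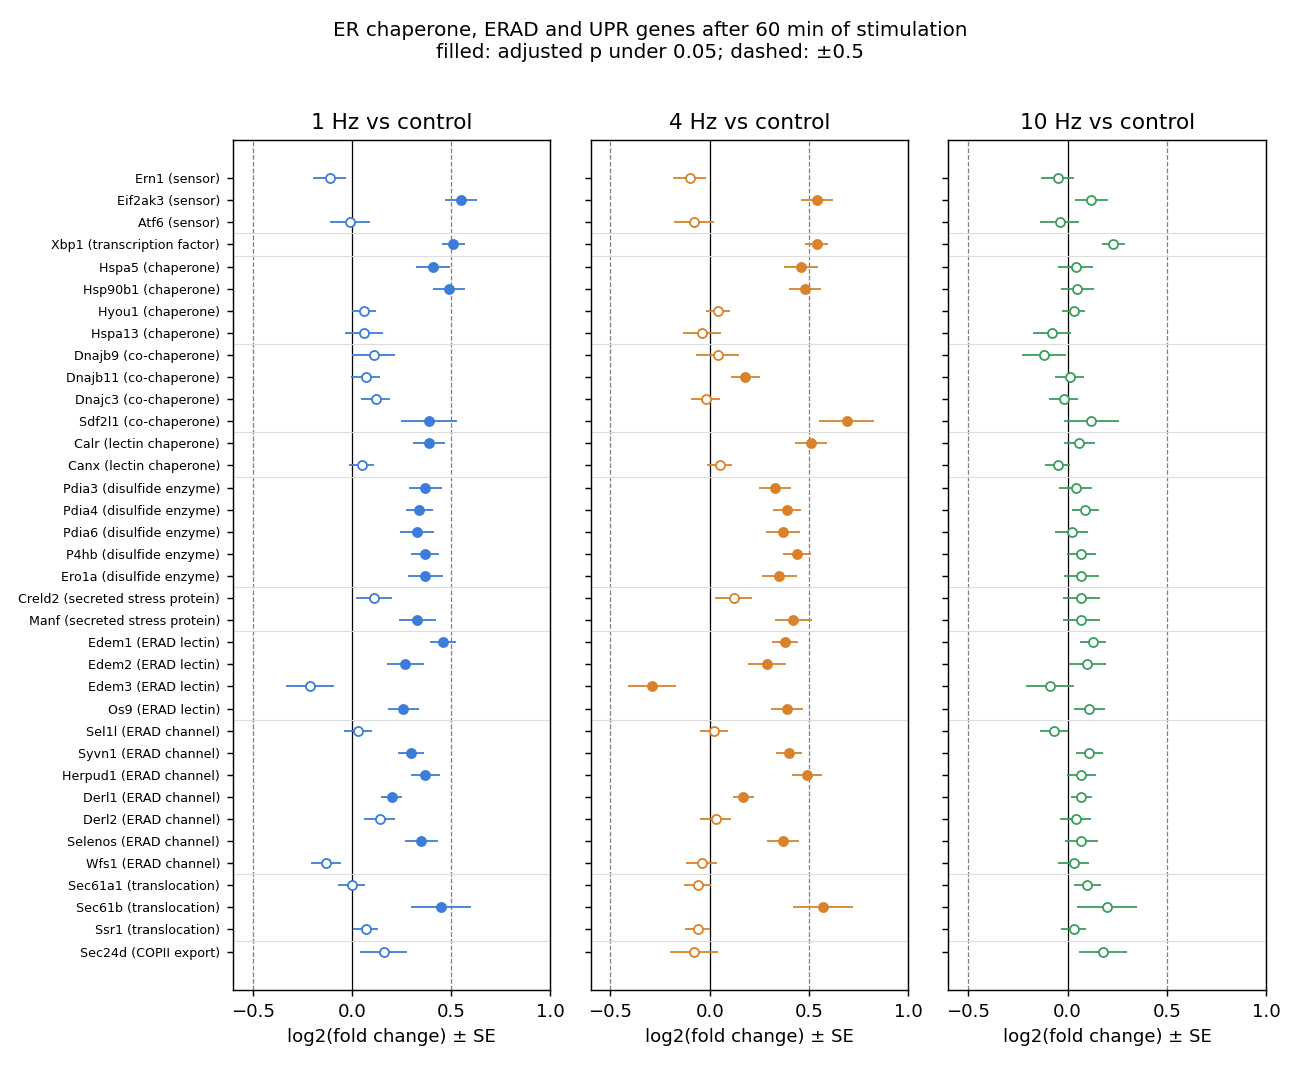
Log2(fold change) ± SE against unstimulated controls of the 36 tested members (rows, grouped by role) at 1, 4 and 10 Hz (columns, 6 libraries per group), with filled points for an edgeR adjusted p under 0.05 and dashed lines at ±0.5. At 1 and 4 Hz 20 and 21 points are filled to the right of 0 and only Edem3 at 4 Hz to the left, while no point is filled at 10 Hz.

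The size of this rise depended on the scale. On the deposited TPM, tested with limma on log2(TPM + 1), the median of all genes moved to -0.14 at 1 Hz and -0.21 at 4 Hz, and the members' median was 0.05 and -0.05. Against 0 on that scale, 2 members were higher and 0 lower at 1 Hz (Hsp90b1 and Edem1 higher) and 2 higher and 9 lower at 4 Hz (Sdf2l1 and P4hb higher, with Edem3, Wfs1, Sec61a1, Derl2, Dnajc3, Hyou1, Ssr1, Dnajb9 and Hspa13 lower). On that scale 3.58% of all genes were higher and 21.9% lower at 1 Hz, and 5.83% and 35.9% at 4 Hz. When the same TPM were scaled with TMM factors and tested in edgeR, 19 and 18 members were higher, 18 and 18 of them shared with the fit to the counts, with medians of 0.23 and 0.23 beside 0.01 and 0.03 over all genes. Under each scaling tried the members' median lay above that of all genes at both frequencies, but its sign at 4 Hz did not hold on the deposited TPM.

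Removing each library's trend over transcript length, an alternative chosen after the trend was seen, left 21 members higher at 1 Hz and 20 at 4 Hz, of which 18 and 19 were among those named by the counts as they stand. Their medians were then 0.21 and 0.27, with 0.02 and 0.03 over all genes. Sdf2l1 and Sec61b lost their call at 1 Hz and Dnajb11 and Selenos at 4 Hz. Leaving out the 5 libraries with the steepest trends, also chosen after seeing the data, gave 18 members higher at each frequency and medians of 0.18 and 0.23. Manf, Sdf2l1 and Sec61b lost their call at 1 Hz and Derl1, Dnajb11 and Edem2 at 4 Hz. With the fold threshold, 3 members were called at 4 Hz with the trend removed and 2 without the 5 libraries.

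**Figure D2:**
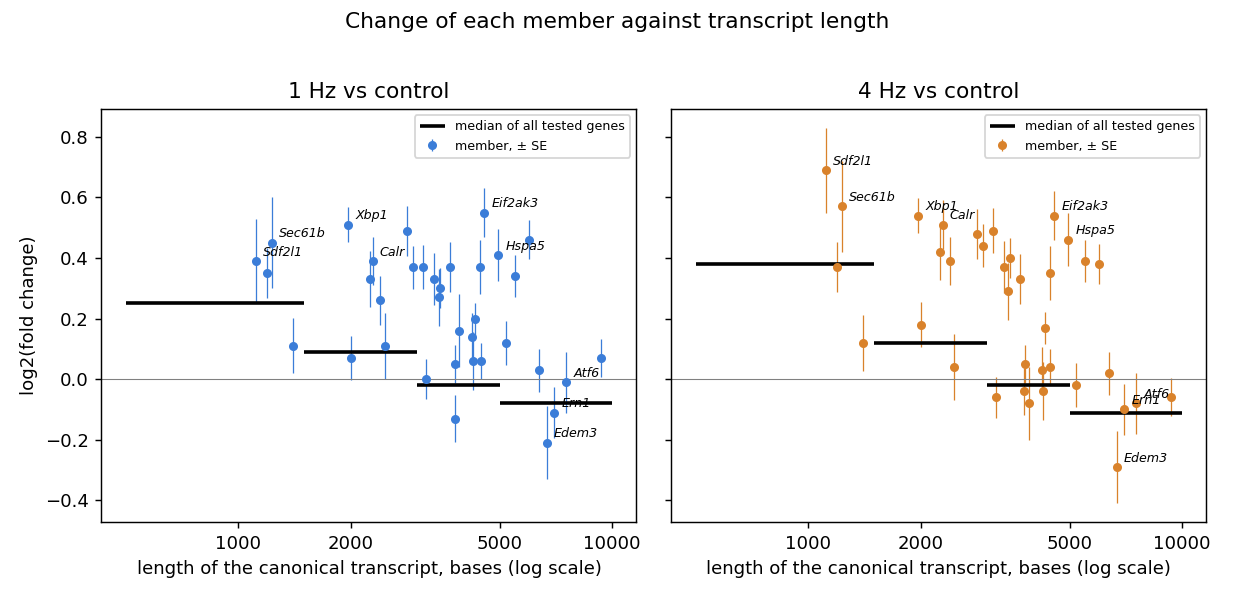
Log2(fold change) ± SE of each tested member (points) against the length of its canonical transcript in bases (log axis), with the median of all tested genes in 4 length classes as black lines, at 1 Hz (left) and 4 Hz (right). The black lines fall from 0.25 and 0.38 under 1500 bases to -0.08 and -0.11 over 5000, and most members of intermediate length lie above them.

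Within length classes the members' medians stayed above those of all genes. At 4 Hz they were 0.47 for the 4 members under 1500 bases, 0.43 for 8 from 1500 to 3000, 0.23 for 16 from 3000 to 5000 and -0.04 for 8 over 5000, beside 0.38, 0.12, -0.02 and -0.11 for all genes. The counts of members higher were 3, 7, 9 and 2 in that order, where 45.8%, 31.3%, 23% and 16.3% of all genes of those classes were higher.

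Of the 3 sensors, Eif2ak3 alone passed the test, at 1 and 4 Hz. The shares of all tested genes that were higher, 19.2% at 1 Hz and 27.5% at 4 Hz, stand beside each count of a role group that follows. Eif2ak3, the kinase that phosphorylates eIF2-alpha and slows translation, had 29 to 34.4 CPM in controls, with a median of 33.7, where CPM are counts scaled to library size with TMM factors. It had a median of 49 at 1 Hz (39.4 to 53.1), 46.9 at 4 Hz (41.6 to 56.7) and 36.6 at 10 Hz (30.3 to 39). Every library at 1 and 4 Hz lay above every control. The log2(fold change) was 0.55 ± 0.082 (SE) at 1 Hz and 0.54 ± 0.082 at 4 Hz (edgeR adjusted p = 1.3e-05 and 8.3e-06), and 0.12 ± 0.083 at 10 Hz (adjusted p = 0.77).

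Ern1, which splices Xbp1 mRNA, had a median of 34.9 CPM in controls (29.8 to 35.6), 32.2 at 1 Hz (26.5 to 36.3), 32.4 at 4 Hz (29.2 to 33.4) and 34.4 at 10 Hz (25.9 to 36.8). Atf6, a membrane-bound factor that is cut free in the Golgi, had a median of 169 CPM in controls (159 to 188), 180 at 1 Hz (132 to 194), 159 at 4 Hz (137 to 191) and 168 at 10 Hz (138 to 195). The groups overlapped throughout for both genes. For Ern1 the log2(fold change) was -0.11 ± 0.083, -0.1 ± 0.083 and -0.05 ± 0.083 in the order 1, 4, 10 Hz (edgeR adjusted p = 0.32, 0.34 and 0.95). For Atf6 it was -0.01 ± 0.1, -0.08 ± 0.1 and -0.04 ± 0.1 (edgeR adjusted p = 0.95, 0.52 and 0.98). The 95% intervals at 4 Hz ran from -0.27 to 0.07 for Ern1 and from -0.28 to 0.13 for Atf6, and the signs of both turned under some settings.

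Xbp1, the transcription factor whose spliced form drives chaperone and ERAD genes, had the smallest p of all members in each comparison with the controls. Its level was 162 to 196 CPM in controls (median 181), 249 to 273 at 1 Hz (median 257), 240 to 276 at 4 Hz (median 266) and 194 to 230 at 10 Hz (median 213). In CPM no library at 1 or 4 Hz overlapped the controls, and at 10 Hz 5 of 6 lay above all controls. In TPM the ranges overlapped, with 157 to 188 in controls, 149 to 234 at 1 Hz and 144 to 243 at 4 Hz. The log2(fold change) was 0.51 ± 0.058 at 1 Hz and 0.54 ± 0.058 at 4 Hz (edgeR adjusted p = 3.4e-07 and 8.1e-08). Counts per gene do not separate spliced from unspliced Xbp1 mRNA.

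**Figure D3:**
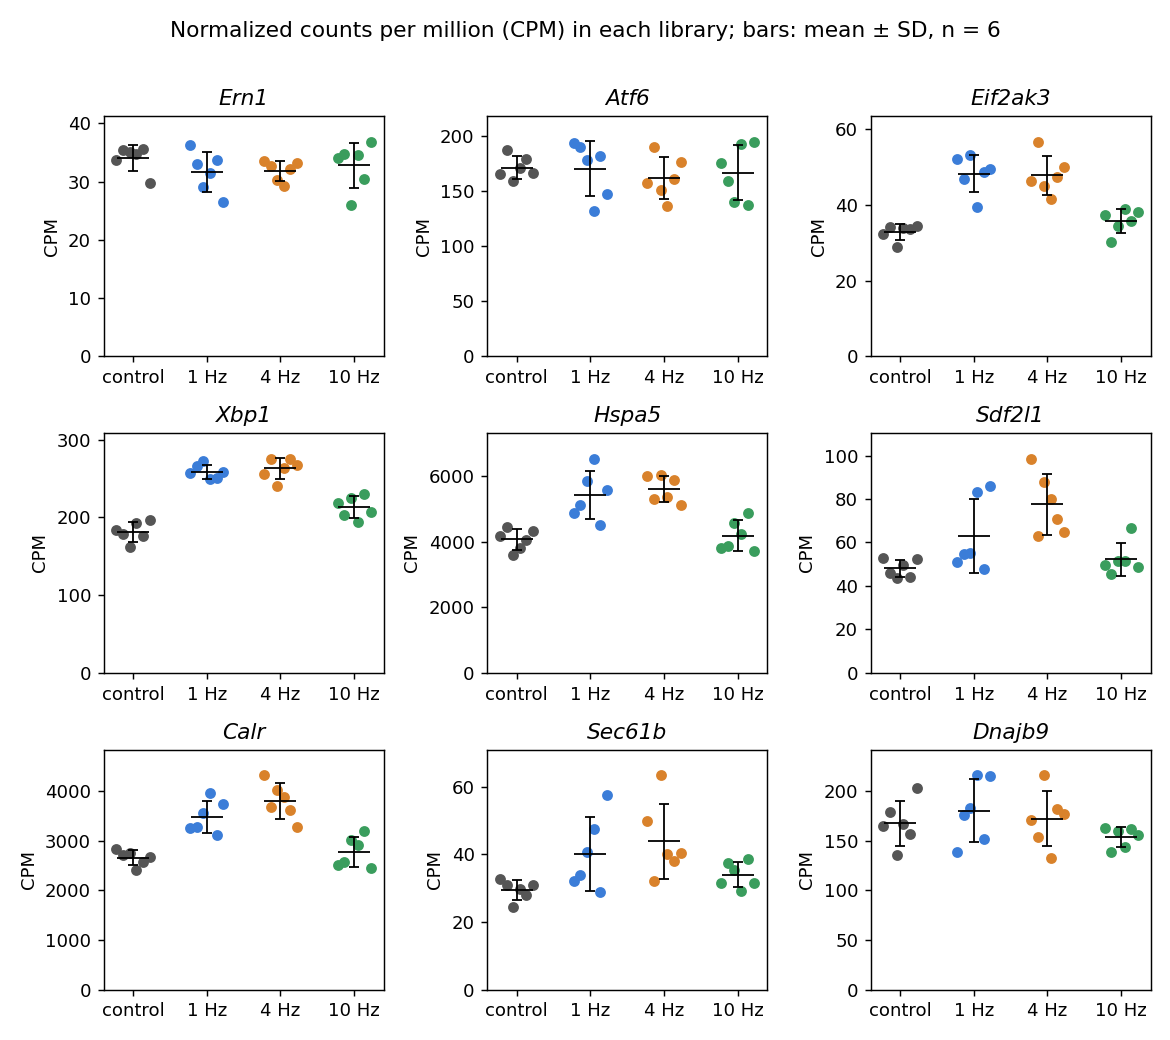
TMM-scaled CPM in each library (points) of 9 members in controls and at 1, 4 and 10 Hz, with black bars for the mean ± SD of 6 libraries and axes that start at 0. For Eif2ak3, Xbp1, Hspa5 and Calr every library at 1 and 4 Hz lies above every control, while Ern1, Atf6 and Dnajb9 overlap in all groups.

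Among the Hsp70 and Hsp90 chaperones of the lumen, the abundant pair rose and the other 2 did not. Hspa5 (BiP) had a median of 4120 CPM in controls (3590 to 4450), 5350 at 1 Hz (4510 to 6540), 5620 at 4 Hz (5120 to 6030) and 4060 at 10 Hz (3710 to 4890). The 1 and 4 Hz libraries lay above all controls, and the 10 Hz libraries overlapped them. The log2(fold change) was 0.41 ± 0.087 at 1 Hz and 0.46 ± 0.087 at 4 Hz (edgeR adjusted p = 6.6e-04 and 1.0e-04), and 0.04 ± 0.087 at 10 Hz (adjusted p = 0.98). Hsp90b1, the ER form of Hsp90, moved from a median of 1630 CPM in controls to 2270 at 1 Hz and 2320 at 4 Hz, with no overlap. Hyou1, a large Hsp70 relative that helps BiP exchange nucleotide, had 0.06 and 0.04, and Hspa13, another Hsp70 relative, 0.06 and -0.04, and neither passed the test.

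Of the 3 J-domain proteins that direct BiP, 1 passed at 4 Hz and none at 1 Hz, where 27.5% and 19.2% of all tested genes were higher. Dnajb9, a known XBP1 target, had a median of 166 CPM in controls (135 to 203), 179 at 1 Hz (139 to 216), 174 at 4 Hz (133 to 216) and 157 at 10 Hz (138 to 163). Its log2(fold change) was 0.11 ± 0.11, 0.04 ± 0.11 and -0.12 ± 0.11 (edgeR adjusted p = 0.47, 0.79 and 0.88), the last being the smallest p of any member in the downward direction at 10 Hz. Its groups overlapped, and the 95% interval at 4 Hz ran from -0.19 to 0.27. Dnajc3 had 0.12 at 1 Hz and -0.02 at 4 Hz without passing the test. Dnajb11 passed at 4 Hz alone with 0.18 (edgeR adjusted p = 0.041), a call lost without any of 9 single libraries (all but control replicate 1 and 4 Hz replicates 2 and 6), with RLE factors, without the low-count filter, with DESeq2, with a replicate block, with scaled TPM, with the length trend removed and without the 5 libraries of steepest trend.

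Sdf2l1, a small luminal partner of the J-domain protein encoded by Dnajb11, had the largest log2(fold change) of any member at 4 Hz in the counts as they stand, though not at 1 Hz or with the length trend removed. It had a median of 47.8 CPM in controls (43.7 to 52.6), 55.1 at 1 Hz (47.7 to 86.1), 75.3 at 4 Hz (62.9 to 98.6) and 50.6 at 10 Hz (45.4 to 66.9). The 4 Hz libraries lay above all controls, and at 1 Hz 4 of 6 did. The log2(fold change) was 0.39 ± 0.14 at 1 Hz and 0.69 ± 0.14 at 4 Hz (edgeR adjusted p = 0.025 and 2.2e-04). It is also the shortest member, with a canonical transcript of 1113 bases, and with the length trend removed the values were 0.18 (adjusted p = 0.087) and 0.38 (adjusted p = 4.5e-04). At 1 Hz the call was also lost without control replicate 3 or 5 or 1 Hz replicate 4 or 6, at adjusted p = 0.051, 0.052, 0.12 and 0.13.

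Of the 2 lectin chaperones, which hold glycoproteins that carry a last glucose, the soluble one rose and the membrane-bound one did not. Calr had a median of 2690 CPM in controls (2420 to 2840), 3420 at 1 Hz (3120 to 3950), 3780 at 4 Hz (3270 to 4320) and 2750 at 10 Hz (2450 to 3200). All 1 and 4 Hz libraries lay above all controls. The log2(fold change) was 0.39 ± 0.08 at 1 Hz and 0.51 ± 0.08 at 4 Hz (edgeR adjusted p = 4.6e-04 and 1.0e-05). Canx had 0.05 ± 0.063 at both frequencies, with a 95% interval from -0.08 to 0.18. Calreticulin is also known to buffer calcium in the reticulum.

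All 5 disulfide enzymes rose at both frequencies, where 19.2% of all tested genes were higher at 1 Hz and 27.5% at 4 Hz. Pdia3, the partner of both lectin chaperones, Pdia4, Pdia6, the main isomerase P4hb, which is also a subunit of the collagen prolyl hydroxylase, and Ero1a, which reoxidizes them, had log2(fold changes) of 0.33 to 0.37 at 1 Hz and of 0.33 to 0.44 at 4 Hz. At 4 Hz every library of each lay above every control in CPM, which held for 12.9% of all tested genes. P4hb had 1240 to 1340 CPM in controls and 1520 to 1930 at 4 Hz. Of the 2 stress proteins that cells can secrete, Manf rose by 0.33 and 0.42 (edgeR adjusted p = 0.0080 and 6.4e-04), the former call being lost without the 5 libraries of steepest length trend (0.15, adjusted p = 0.12), and Creld2 had 0.11 and 0.12 without passing.

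Of the 4 genes that trim or read glycans for ERAD, 3 rose at each frequency, where 19.2% and 27.5% of all tested genes were higher. Edem1, Edem2 and Edem3 trim mannose from misfolded glycoproteins, and Os9 reads the trimmed glycan. Edem1 rose by 0.46 and 0.38, Edem2 by 0.27 and 0.29 and Os9 by 0.26 and 0.39 at 1 and 4 Hz. With scaled TPM Edem1 lost its call at 4 Hz (adjusted p = 0.071) and Edem2 at both frequencies (0.10 and 0.088), and Edem2 at 4 Hz lost it without the 5 libraries (0.10). Edem3 was the only member lower at an adjusted p under 0.05, at 4 Hz, with -0.29 ± 0.12 (edgeR adjusted p = 0.040), and it was at -0.21 at 1 Hz. That call was lost without control replicate 2, 5 or 6 or 4 Hz replicate 1 or 4 (adjusted p = 0.055 to 0.091) and with the length trend removed, when the value was -0.18, or without the 5 libraries, when it was -0.17. Edem2 at 1 Hz lost its call without control replicate 4 or 6 or 1 Hz replicate 2 or 3 (adjusted p = 0.056 to 0.11), and at 4 Hz without 4 Hz replicate 4 or 5 (0.084 and 0.051), as did Os9 at 1 Hz without 1 Hz replicate 3 (0.051).

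Of 7 tested genes grouped with the ERAD channel, 4 rose at each frequency, where 19.2% and 27.5% of all tested genes were higher. The group includes Wfs1, which is not a part of the channel itself. Syvn1, the ubiquitin ligase of the channel (HRD1), rose by 0.3 and 0.4, and Herpud1, which organizes it, by 0.37 and 0.49. Selenos, a selenoprotein that docks the extraction ATPase, rose by 0.35 and 0.37, and Derl1, a derlin of the channel, by 0.2 and 0.17. Derl1 lost its call at 4 Hz without control replicate 3 (adjusted p = 0.053). Sel1l, the partner that steadies Syvn1, stood at 0.03 and 0.02 with a 95% interval at 4 Hz from -0.13 to 0.16. Derl2, with 0.14 and 0.03, and Wfs1, an ER membrane protein of calcium balance and stress, with -0.13 and -0.04, did not pass either.

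Of the 3 genes of entry, 1 passed at each frequency, where 19.2% and 27.5% of all tested genes were higher. That gene, Sec61b, has a canonical transcript of 1230 bases. Of all tested genes under 1500 bases, 28.1% were higher at 1 Hz and 45.8% at 4 Hz. Sec61b, the small subunit of the channel, had a median of 30.2 CPM in controls (24.3 to 32.7), 37.3 at 1 Hz (28.8 to 57.5), 40.2 at 4 Hz (32.1 to 63.3) and 33.5 at 10 Hz (29.3 to 38.6). At 4 Hz 5 of 6 libraries lay above all controls and at 1 Hz 4 did. The log2(fold change) was 0.45 ± 0.15 at 1 Hz and 0.57 ± 0.15 at 4 Hz (edgeR adjusted p = 0.019 and 0.0027), and with the length trend removed 0.26 (adjusted p = 0.050) and 0.3 (adjusted p = 0.019). Without 1 Hz replicate 4 or 6 the call at 1 Hz was lost (adjusted p = 0.068 and 0.11). Sec61a1, the pore, had 0 and -0.06, Ssr1, a subunit of the translocon-associated complex, 0.07 and -0.06, and Sec24d, a cargo adapter of the COPII coat, 0.16 and -0.08, and none of them passed.

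At 10 Hz no member was called higher or lower against controls, by either rule, where 0.015% of all tested genes were higher and 0.0225% lower by both. By edgeR 1 member had an unadjusted p under 0.05, and by DESeq2 1 member passed at an adjusted p under 0.05. Both were Xbp1, with 0.23 ± 0.058 (edgeR adjusted p = 0.14, DESeq2 adjusted p = 0.0070). No member had all 10 Hz libraries above all controls, which 0.774% of tested genes did. The members' median was 0.06 and that of all genes 0.01. The upper end of the 95% interval was under 0.5 for 35 of 36 members and under 0.25 for 24, with the highest at 0.51 for Sec61b, so a rise of 0.5 lay outside the interval for all but that gene.

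Tested directly between frequencies, 15 and 18 members were lower at 10 Hz than at 1 and 4 Hz. Between 4 and 1 Hz no member passed either rule in edgeR, and none of the 13315 tested genes did (0% in both directions), while DESeq2 gave 0.192% of genes higher and 0.416% lower at an adjusted p under 0.05, with no member among them. By an unadjusted p under 0.05, 2 members differed, Sdf2l1 with 0.29 and Ssr1 with -0.14. At 10 Hz 15 members were lower than at 1 Hz at an adjusted p under 0.05 and none higher, where 13.1% of all tested genes were lower and 14.8% higher. None passed the fold threshold (background 4.99% lower, 5.85% higher). At 10 Hz 18 members were lower than at 4 Hz and none higher, where 24.4% of genes were lower and 21.9% higher. This comparison shares its 4 Hz libraries with that of 4 Hz against controls. With the fold threshold 1 was called, Sdf2l1 with -0.57 ± 0.14 (edgeR adjusted p = 0.0018, background 10.6% in each direction), and no member was called without 4 Hz replicate 1 or without the 5 libraries. Xbp1 had -0.3 ± 0.058 and Eif2ak3 -0.42 ± 0.083 at 10 Hz against 4 Hz (edgeR adjusted p = 1.9e-04 and 2.8e-04). In CPM all 10 Hz libraries lay below all 4 Hz libraries in 11 of 36 members, where 8.1% of all tested genes did so. On log2(TPM + 1), 1 member was lower and 7 higher at 10 Hz than at 4 Hz, where 5.06% of all genes were lower and 33.2% higher.

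**Figure D4:**
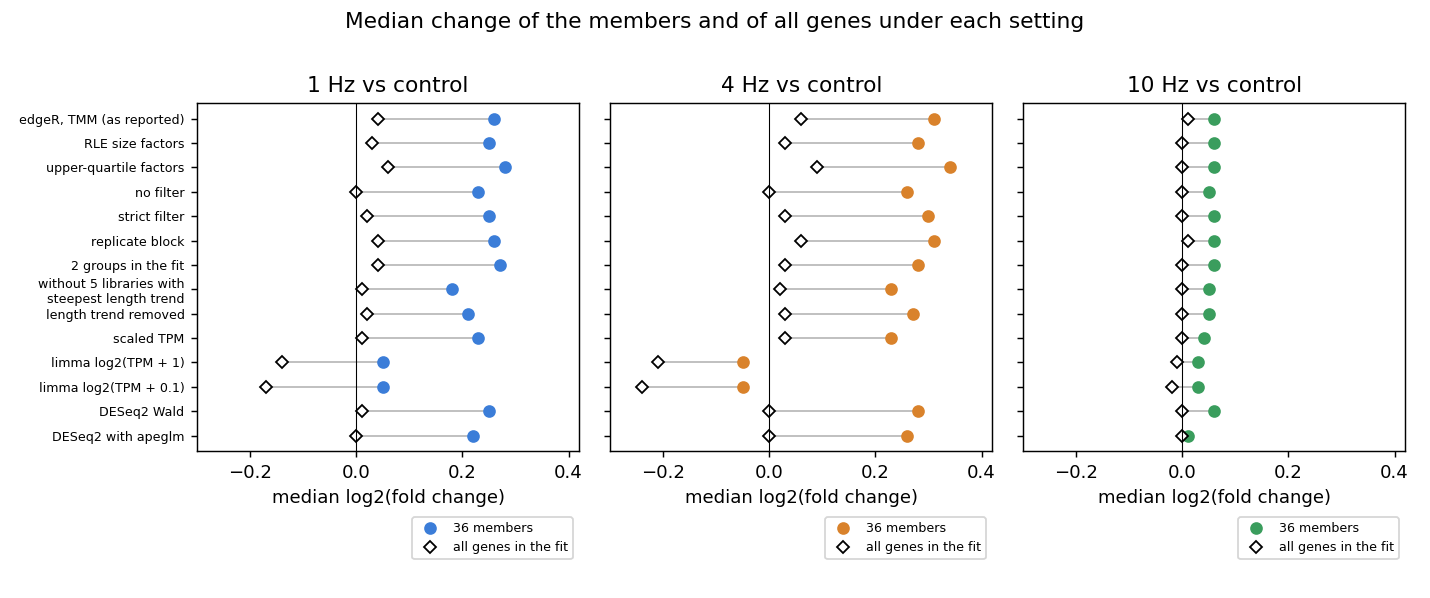
Median log2(fold change) of the 36 tested members (circles) and of all genes in the fit (diamonds) under each processing setting (rows) at 1, 4 and 10 Hz against controls. The members' median lies right of that of all genes in each setting, and on the deposited TPM both move left, to 0.05 and -0.14 at 1 Hz and to -0.05 and -0.21 at 4 Hz.

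Within a group the libraries differed in their level of these genes. Control replicate 3 had the lowest CPM of the controls in 20 of 36 members, and control replicate 6 the highest in 18. At 1 Hz replicate 5 was lowest in 14 and at 4 Hz replicate 4 in 14. The median coefficient of variation over the members was 6.62% in controls and 12%, 8.83% and 7.57% in the order 1, 4, 10 Hz, and Sec61b varied most at 1 and 4 Hz with 27% and 25.2%.

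Other genes of the secretory route, listed with earlier results known, are given by their counts at an adjusted p under 0.05 in edgeR. By that rule 19.2% of all tested genes were higher and 18.1% lower at 1 Hz, and 27.5% and 23.9% at 4 Hz. These shares stand beside each list that follows, and the lists were not adjusted for transcript length. Of 22 genes of translocation, signal peptide removal and N-glycosylation, 5 were higher and 0 lower at 1 Hz and 10 and 0 at 4 Hz, with a median of 0.16 at both. Tusc3 of the oligosaccharyl transferase rose by 0.52 and 0.66 and Ssr4 by 0.48 and 0.62. Of 28 other folding enzymes, 12 were higher at each frequency and 1 and 2 lower, with medians of 0.17 and 0.14. Prdx4, an ER peroxiredoxin, rose by 0.6 and 0.65, and Sil1, an exchange factor of BiP, by 0.36 and 0.46, while Ero1b fell by 0.29 and 0.45 and Uggt2 fell by 0.61 at 4 Hz.

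Of 18 tested other ERAD genes, 5 were higher and 4 lower at 1 Hz and 5 and 6 at 4 Hz, with medians of 0 and 0.03. The shares of all tested genes were 19.2% higher and 18.1% lower at 1 Hz and 27.5% and 23.9% at 4 Hz. Erlec1, a lectin of ERAD, rose by 0.42 at 4 Hz, and the ligases Rnf139 and Rnf5 by 0.36 and 0.53 at 1 Hz. The extraction ATPase Vcp fell by 0.26 at 4 Hz, its cofactor Nploc4 fell by 0.4 and 0.51 at 1 and 4 Hz, and its adapter Faf2 fell by 0.35 at 1 Hz. Of 12 genes of the COPII coat, 2 were higher and 0 lower at 1 Hz and 2 and 1 at 4 Hz, with medians of 0.02 and -0.02. Sec24a rose by 0.6 and 0.51, Sec23a by 0.28 at 1 Hz and Sar1b by 0.46 at 4 Hz, where Sec23b fell by 0.4.

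Of 16 other UPR transducers and outputs of the PERK arm, 8 were higher and 2 lower at 1 Hz and 9 and 3 at 4 Hz, with medians of 0.28 and 0.33. The shares of all tested genes were again 19.2% higher and 18.1% lower at 1 Hz and 27.5% and 23.9% at 4 Hz. Trib3, a pseudokinase induced downstream, rose by 0.69 and 0.8, Creb3, a membrane-bound factor, by 0.44 at 1 Hz, and Atf4, the factor translated when eIF2-alpha is phosphorylated, by 0.49 at 4 Hz. Mbtps1, the protease that cuts ATF6, fell by 0.35 and 0.34, Creb3l1 fell by 0.3 at 1 Hz, and Nfe2l2, a factor of the oxidative stress response, fell by 0.29 at 4 Hz. Of 14 chaperones and co-chaperones outside the ER, 0 were higher and 2 lower at 1 Hz and 1 and 2 at 4 Hz, with medians of -0.08 and 0.01. Hspd1, the mitochondrial Hsp60, fell by 0.5 and 0.66, and Stip1, which links Hsp70 and Hsp90, fell by 0.3 and 0.26, while Dnajb1, an Hsp70 co-chaperone, rose by 1.26 at 4 Hz. At 10 Hz the medians of these 6 lists ran from -0.08 to 0.13.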

How the data were processed

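RNA of 24 libraries of ChR2 C2C12 tissues was sequenced by the authors, in 4 groups of 6. The paper's methods name the nf-core/rnaseq pipeline with Ensembl annotation of GRCm39. The submitters' processing notes name STAR and Salmon, beside BWA and bedtools, and list the genome builds GRCm39, hg19 and mm10. Which build each step used was not settled here. The authors deposited estimated counts per gene, summed over transcripts and not normalized, of which 19% of the values above 0 were not whole (tolerance 0.001), and TPM per gene, which is divided by transcript length and scaled within a library. The paper's methods name a directional library kit with poly(A) selection. How strand was used in counting is not given in the sources used here, and 24 of the 37 members have an annotated gene on the opposite strand.

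The members, lists and tests were chosen with earlier results of these data known. Counts were rounded and filtered with filterByExpr (minimum count 10, minimum total 15), scaled by TMM, and tested in edgeR 4.0.16 (R 4.3.3) by the quasi-likelihood F test with robust dispersions, in 1 fit with a mean per group. Adjusted p-values are Benjamini-Hochberg over 13315 genes. A call needs this value under 0.05 and a log2(fold change) past 0.5 in size. Depth was 8052369 to 18159144 estimated counts per library. Genes named in full are the 3 sensors, Xbp1, Hspa5, up to 12 members called against controls with the smallest p, and the smallest p in each direction at 10 Hz. Of each further list, up to 2 genes per direction with the smallest p are named. Positions, lengths and starts come from GENCODE M39 on GRCm39, which holds 98.9% of the gene identifiers and gives a length for 99.9% of the tested genes. The alternatives were RLE and upper-quartile factors, no filter, a strict filter, 2 groups in the fit, a replicate block, each library left out, DESeq2 1.42.0 with and without apeglm 1.24.0, TPM scaled to counts, and limma 3.58.1 on log2(TPM + 1) and log2(TPM + 0.1). For the length trend, a lowess curve (span 0.3) over log2 length was entered as an offset per library. The method was tested on simulated counts. These held no trend over transcript length and no changes as small as those of most members, so that test does not bear on either.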

Additional observations from a re-analysis of the deposited data

Results flagged for a closer look

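Of 144 sets of 6 libraries (36 members in 4 groups), 6 held a library whose gap to its nearest neighbour was large for the range of its group by Dixon's criterion (0.625), where chance gives about 1 in 20. Control replicate 6 was lowest for Ern1, with 29.8 CPM and the next at 33.6. Control replicate 3 was lowest for Derl1, with 233 CPM and the next at 260. At 4 Hz replicate 4 was lowest for Dnajc3, with 101 CPM and the next at 123, and for Ssr1, with 188 CPM and the next at 227. At 4 Hz replicate 2 was highest for Sec61a1, with 252 CPM and the next at 226. At 10 Hz replicate 5 was highest for Sdf2l1, with 66.9 CPM and the next at 51.4.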

How the results depend on the processing

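The counts of members at an adjusted p alone, at 20 and 21 higher than in controls at 1 and 4 Hz, stayed within 1.5 times under every alternative but log2(TPM + 1) and log2(TPM + 0.1), which gave 2 and 3 at 1 Hz and 2 and 2 at 4 Hz, with 9 and 9 lower at 4 Hz. Leaving out single libraries gave 18 to 21 at 1 Hz and 19 to 21 at 4 Hz, and 0 to 1 lower at 4 Hz, which was 0 with the length trend removed and 0 without the 5 libraries of steepest trend. With the fold threshold the 2 calls at 1 Hz became 1 with no filter, scaled TPM, DESeq2 or apeglm, 0 on either TPM scale and 1 to 4 without single libraries, and 20 with no fold threshold. The 5 calls at 4 Hz became 2 with no filter or scaled TPM, 1 with apeglm, 0 on either TPM scale, 3 to 7 without single libraries, 3 with the length trend removed, 2 without the 5 libraries and 21 with no fold threshold. No member was called lower at 4 Hz, but 1 was on either TPM scale and 1 with no fold threshold. At 10 Hz DESeq2 gave 1 higher at an adjusted p alone, with and without apeglm. Against 1 Hz, 1 was called lower at 10 Hz with scaled TPM and 15 with no fold threshold, and either TPM scale left 1 of the 15. Against 4 Hz, the 1 called lower became 0 on either TPM scale and without the 5 libraries, 0 to 1 without single libraries and 18 with no fold threshold, and either TPM scale left 1 of the 18. There, 2 were called higher on either TPM scale, and at an adjusted p alone 1 was higher with RLE, the strict filter or DESeq2, 2 with 2 groups in the fit or scaled TPM, 7 on either TPM scale and 0 to 3 without single libraries. The cause of these changes was not tested.

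Signs turned for values near 0 and, on the TPM scales, also for members that had passed the test in the counts. At 1 Hz Ern1 had 0.02 with scaled TPM, and Atf6 had 0.0086 with upper-quartile factors, 0.11 without the 5 libraries, 0.09 with the length trend removed and -0.05 to 0.03 without single libraries. Dnajb9 had -0.05 without the 5 libraries and -0.12 on either TPM scale. At 4 Hz Ern1 had 0.04 with the length trend removed and 0.15 with scaled TPM, and Atf6 had 0.06 and, without the 5 libraries, 0.01. Dnajb9 there had -0.0046 with no filter, -0.01 with the length trend removed, -0.02 with scaled TPM, -0.29 on either TPM scale and -0.07 to 0.1 without single libraries. On the TPM scales at 4 Hz, Dnajb11 had -0.1 and -0.11, Pdia3 -0.02, Edem2 -0.08 and Derl1 -0.12. In the counts these members had passed as higher, with 0.18, 0.33, 0.29 and 0.17 in that order. At 10 Hz the range without single libraries was -0.09 to 0.004 for Ern1, -0.09 to 0.01 for Atf6 and -0.01 to 0.07 for Hspa5. At 10 Hz against 4 Hz on the TPM scales, Pdia3 had 0.02, Edem1 0.0012 and 0.00086, Os9 0.04 and Syvn1 0.01. In the counts these members had passed as lower, with -0.29, -0.25, -0.28 and -0.29 in that order.

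Same-numbered replicates did not deviate together (median correlation -0.035 at 1 Hz and -0.0046 at 4 Hz against controls, with 1 and 0 of 6 pairs over 0.1, and 0 and 2 of 6 closest to their own number), so the numbers are taken as names. With the replicate number as a block, 20 members were higher at each frequency, 2 and 5 with the fold threshold, and 0 at 10 Hz, and 14 and 17 were lower at 10 Hz than at 1 and 4 Hz.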
